A study of Mus musculus with 18 samples.

Results

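Among the genes measured in mouse forelimb buds, 9 encode Wnt ligands that the count files identify as Wnt2b, Wnt3, Wnt4, Wnt5a, Wnt5b, Wnt6, Wnt7b, Wnt10a and Wnt11. They were chosen by name, by matching each symbol to its Ensembl identifier, and they are 9 of 55487 identifiers in the count files. A filter on low counts kept 20118 genes, and all 9 ligands passed it. RNA was sequenced from individual forelimb buds in 18 libraries, 3 in each of 6 groups. Controls carried homozygous Esco2fl/fl alleles, in which Esco2 is flanked by loxP sites, and mutants carried Esco2fl/fl together with the transgene Prrx1-CreTg/0, at 3 stages, named by embryonic day as E9.5, E10.5 and E11.5. All groups share the floxed alleles. The Prrx1 promoter drives Cre in limb mesenchyme and not in the ectoderm that covers it, and the controls lacked Cre, so effects of Cre itself and of Esco2 loss cannot be told apart. Esco2 acetylates cohesin, the ring that holds sister chromatids together. Whether replicate libraries stem from different embryos or litters is not stated in the labels, and p-values therefore reflect the spread between libraries only, which may be technical.

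Wnt proteins are lipid-modified by Porcn, carried to the cell surface by Wls, and bind Frizzled receptors together with coreceptors. With Lrp5 or Lrp6 they stabilise beta-catenin, which acts with Tcf and Lef factors on target genes. With Ror2 and the planar cell polarity proteins they orient cells and their movements. In the limb bud, Wnt3 in the ectoderm is needed to form and maintain the apical ectodermal ridge, the strip of epithelium along the distal margin whose FGFs drive outgrowth, whereas Wnt5a from distal mesenchyme directs elongation of the bud.

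Library totals ran from 35034237 to 56230058 counts. A pair of libraries stood apart from their groups. Control E9.5 replicate 1 had reads on 22294 genes, and every other library on at least 24125. In mutant E10.5 replicate 3 the summed level of 8 erythroid markers was 14400 CPM (counts scaled to the library's TMM-scaled total), against 4550 and 7290 in the other mutant libraries of that stage. Esco2 itself was measured over all its exons. At E9.5 its control libraries lay between 25.0 and 28.1 CPM and its mutant libraries between 15.3 and 19.8 CPM, a log2 change of -0.60 ± 0.14 (SE, adjusted p = 0.162). At E10.5 the change was -0.53 ± 0.14 (adjusted p = 0.02), and at E11.5 it was -0.26 ± 0.14 (adjusted p = 0.238). The forelimb regulator Tbx5 was at 50.8 CPM or more in every library, while Pitx1, a hindlimb regulator, was at 11.3 CPM or less. The summed level of 3 hindlimb markers was 13.7 CPM in mutant E9.5 replicate 2, where that Pitx1 value stood, against 3.71 and 2.72 CPM in the other mutants and 1.52 to 6.3 CPM in the controls of that stage.

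The stretch upstream of the start site is shown for 3 ligands that passed the test in mutants: Wnt6, the ligand with the largest rise at E10.5, Wnt3, and Wnt11, the ligand with the largest fall at E10.5 and E11.5. Sequences are from the RefSeq promoter table on GRCm38.p6, run 5′ to 3′ on the gene's strand and cover 250 bases before the start in that table. For Wnt3 this start lies inside the gene as annotated for the counts, so the last 25 bases of its window are within that gene. Capitals mark matches to the TCF/LEF core CTTTGA, the TATA box TATAAA or the p53 half-site, all searched on both strands. The windows are chr1:74771642-74771891 (plus strand) for Wnt6, chr11:103773925-103774174 (plus strand) for Wnt3 and chr7:98834862-98835111 (plus strand) for Wnt11.
Wnt6: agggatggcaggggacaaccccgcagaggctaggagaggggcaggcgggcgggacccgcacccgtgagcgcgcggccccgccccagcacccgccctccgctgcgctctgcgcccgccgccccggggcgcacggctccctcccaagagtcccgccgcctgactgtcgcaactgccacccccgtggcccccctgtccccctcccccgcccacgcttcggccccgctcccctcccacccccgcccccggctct
Wnt3: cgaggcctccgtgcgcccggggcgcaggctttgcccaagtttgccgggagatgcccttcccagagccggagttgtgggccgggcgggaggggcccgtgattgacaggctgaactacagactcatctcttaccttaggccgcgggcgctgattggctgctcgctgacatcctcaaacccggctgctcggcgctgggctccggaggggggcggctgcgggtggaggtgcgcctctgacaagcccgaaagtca
Wnt11: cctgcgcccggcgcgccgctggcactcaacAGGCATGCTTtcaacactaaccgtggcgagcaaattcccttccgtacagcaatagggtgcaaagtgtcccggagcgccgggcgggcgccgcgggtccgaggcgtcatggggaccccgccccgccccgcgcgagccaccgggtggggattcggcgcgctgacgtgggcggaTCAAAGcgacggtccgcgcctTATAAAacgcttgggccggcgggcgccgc

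Only the Wnt11 window among these 3 held capitals. Its p53 half-site match began 220 bases before the start, its TCF/LEF core 50 bases before it and its TATA box 29 bases before it. Promoters were in the table for 6 of the 9 ligands (Wnt2b, Wnt3, Wnt4, Wnt5b, Wnt6 and Wnt11), and the windows of the other 5 of these had no match to the same 3 motifs. Over 32851 windows of this length in the table, 13.8% held the TCF/LEF core, 12.4% the TATA box and 7.13% the p53 half-site. In the windows shown, no match to 1 motif overlapped a match to another. The GC box GGGCGG, left in lower case, occurred in 32.7% of all windows and in each of the 6 ligand windows, 6 times in Wnt6, 2 times in Wnt3 and 4 times in Wnt11. The Wnt6 window was 79.6% G or C, the Wnt3 window 68.0% and the Wnt11 window 70.8%, against a median of 52.4% over all windows. A match describes the letters of the window only. On mm10 the genes the results turn on span chr1:74771892-74785322 (Wnt6), chr4:137277489-137299726 (Wnt4), chr11:103774150-103817957 (Wnt3), chr14:28504750-28527448 (Wnt5a) and chr7:98835112-98855195 (Wnt11), all on the plus strand and all protein-coding.

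In controls, the set of ligands shifted with age from a single leading gene to a pair and then to another leading gene. Levels were compared between genes per length, as CPM per kilobase of exon. At E9.5 Wnt6 led with 44.1 ± 1.76 CPM per kilobase (SD, n = 3), above Wnt5a at 11.7 ± 3.60 and Wnt5b at 11.1 ± 2.54, whose ranges overlapped. At E10.5 Wnt6, at 26.5 ± 4.5 CPM per kilobase, and Wnt5a, at 24.6 ± 1.65, did not separate. At E11.5 Wnt5a led with 41.2 ± 4.05 CPM per kilobase, followed without overlap by Wnt6 at 24.6 ± 4.48. The third in that order was Wnt11 at 15 ± 5.30 CPM per kilobase, which overlapped Wnt5b at 11.6 ± 1.14, and Wnt5b overlapped Wnt7b at 10.2 ± 3.06. Wnt4, at 7.47 ± 1.24 CPM per kilobase, overlapped Wnt7b and stood above Wnt3 at 5.20 ± 0.662. The lowest in every control group were Wnt10a, at 0.673 to 1.44 CPM per kilobase, and Wnt2b, at 0.442 to 0.621.

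**Figure D1:**
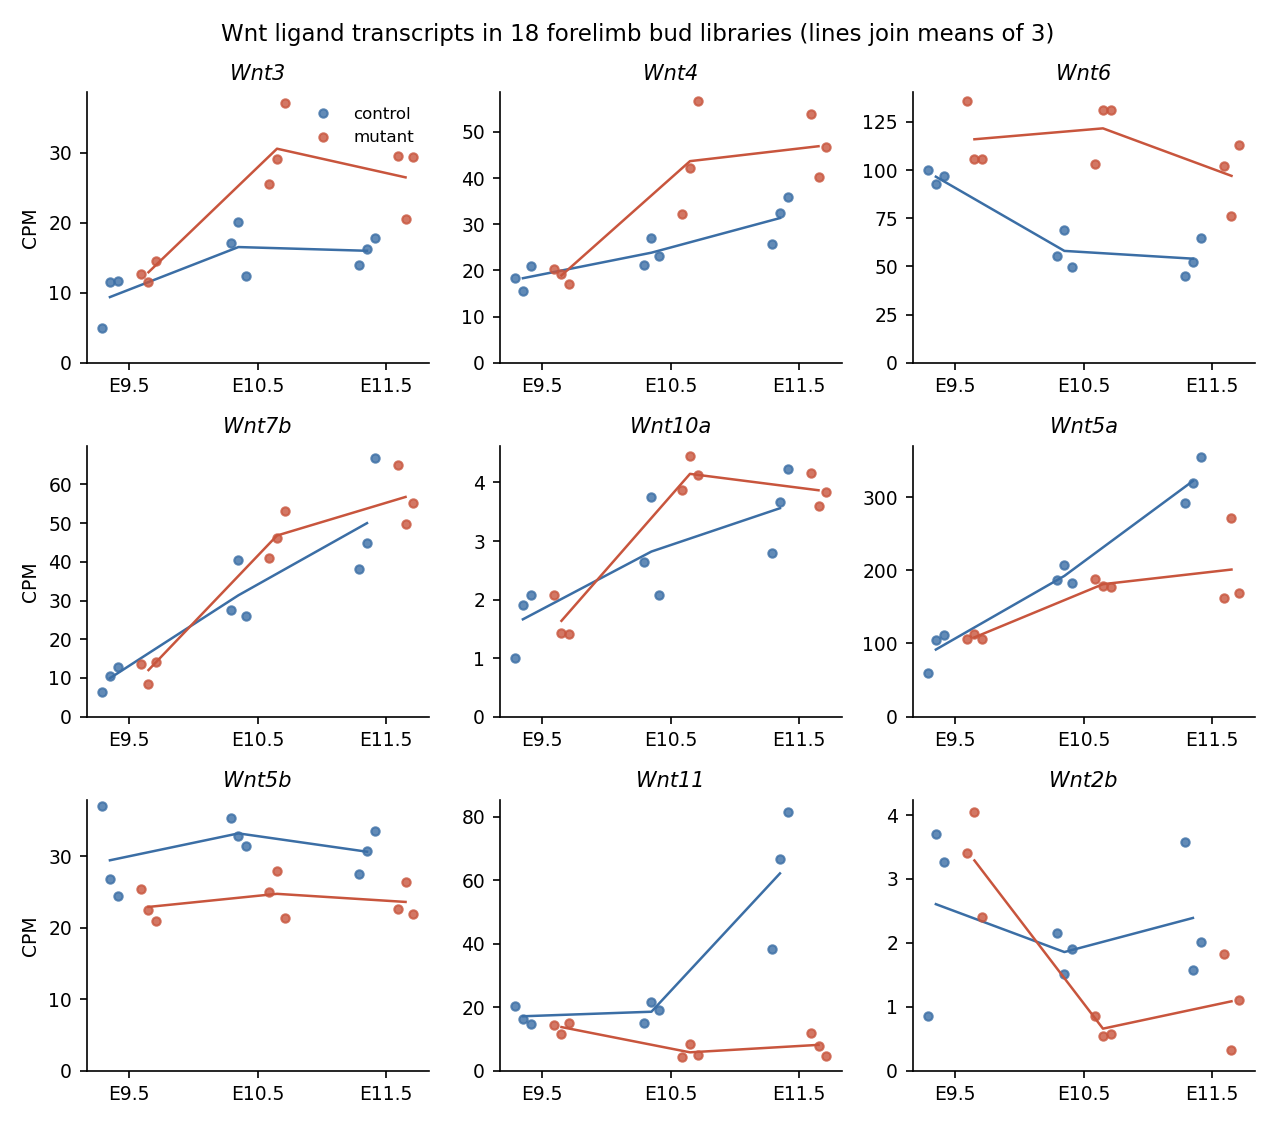
Level of each Wnt ligand in CPM (vertical axis, linear from 0) by embryonic day (horizontal axis); each point is 1 library, blue for control and red for mutant, and lines join the means of 3. At E11.5 the Wnt11 points lie between 38.3 and 81.4 CPM in controls and between 4.72 and 11.9 CPM in mutants, while the Wnt6 points lie between 45.1 and 64.6 CPM in controls and between 76.0 and 113 CPM in mutants.

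Between control E9.5 and E10.5, 4 of the 9 ligands passed the test, against 27.5% of all genes tested (edgeR's quasi-likelihood test, Benjamini-Hochberg adjusted p under 0.05). Wnt7b, a ligand of the limb ectoderm, rose by 1.66 ± 0.27 on the log2 scale (SE, adjusted p = 0.000275), from 6.31, 10.6 and 12.9 CPM to 27.6, 40.4 and 26.1 CPM in replicates 1, 2 and 3. Wnt5a rose by 1.07 ± 0.20 (adjusted p = 0.000892), from 59.1, 105 and 111 CPM to 187, 207 and 183 CPM. Wnt6, the most abundant ectodermal ligand here, fell, with a log2 change of -0.74 ± 0.17 and an adjusted p of 0.00362. Its values at the 2 stages did not overlap. Wnt3 rose by 0.82 ± 0.26 (adjusted p = 0.0292), a call that was lost without control E9.5 replicate 1, control E10.5 replicate 1 or control E10.5 replicate 2, where the adjusted p reached 0.13.

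Between control E10.5 and E11.5, 2 of 9 passed, against 9.49% of all genes. Wnt11, a ligand known mainly for signalling without beta-catenin, rose by 1.74 ± 0.31 (adjusted p = 0.0025), from 15.1, 21.5 and 19.1 CPM to 38.3, 66.7 and 81.4 CPM. Wnt5a rose again, by 0.74 ± 0.20 (adjusted p = 0.0255), to 292, 319 and 355 CPM. The Wnt11 rise was kept in all 6 fits with 1 library left out. The Wnt5a call was kept in 1 of 6, without control E11.5 replicate 1, and in the other 5 the adjusted p reached 0.12.

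In mutants the ligands parted into those above and those below control. At E9.5, 0 of 9 ligands passed the test, against 0.184% of all genes tested. Only 1, Wnt5b, had an unadjusted p under 0.05, a level at which all genes were not counted. DESeq2 also called 0, and so did every fit with 1 library left out. Wnt5b measured 37.1, 26.9 and 24.4 CPM in controls and 25.4, 22.5 and 20.9 CPM in mutants, a log2 change of -0.36 ± 0.15 (adjusted p = 0.497), and the groups overlapped. Wnt6 was the single ligand whose groups did not overlap at E9.5, against 8.87% of all genes. It measured 100, 92.6 and 97.1 CPM in controls and 136, 106 and 106 CPM in mutants.

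At E10.5, 3 of 9 ligands rose and 1 fell, against 7.3% and 6.63% of all genes tested and 13.9% in either direction. The mutant and control libraries of 8 of the 9 ligands did not overlap, where 46.1% of all genes did not. The median log2 change of the 9 ligands was 0.56, against 0.02 over all genes. At E11.5, 2 rose and 2 fell, against 8.02% and 9.52% of all genes and 17.5% in either direction. There 6 of the 9 did not overlap, against 40.5% of all genes, and the median log2 change was 0.12, against 0.01 over all genes. The comparisons at a stage and those between control stages share control libraries.

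Wnt6, a ligand of the limb ectoderm and the most abundant of the 9 at E9.5, rose in mutants at both later stages. At E10.5 it measured 55.3, 69.0 and 49.8 CPM in control replicates 1, 2 and 3 and 103, 131 and 131 CPM in the mutant replicates. The lowest mutant library stood above the highest control library, and the log2 change was 1.06 ± 0.17 (adjusted p = 0.000427). At E11.5 the values were 45.1, 52.3 and 64.6 CPM in controls and 102, 76.0 and 113 CPM in mutants, again without overlap, with a log2 change of 0.85 ± 0.17 (adjusted p = 0.00211). In controls Wnt6 fell after E9.5, while the mutant groups had means of 116 ± 17.2, 121 ± 16.0 and 97.1 ± 18.9 CPM (SD, n = 3) at the 3 stages.

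Wnt4, known for its part in kidney tubule and joint formation, also rose at both stages. At E10.5 it measured 21.2, 27.1 and 23.2 CPM in controls and 32.3, 42.1 and 56.6 CPM in mutants, a log2 change of 0.87 ± 0.18 (adjusted p = 0.00424). The groups did not overlap, and mutant replicate 3, one of the libraries that stood apart, was the highest. At E11.5 it measured 25.7, 32.4 and 35.9 CPM in controls and 53.8, 40.2 and 46.7 CPM in mutants, with a log2 change of 0.58 ± 0.18 (adjusted p = 0.0366). The groups again did not overlap. The E10.5 call of Wnt4, like those of Wnt6 at both stages, was kept in all 6 fits with 1 library left out, whereas the E11.5 call of Wnt4 was lost without control replicate 1, control replicate 2, mutant replicate 1 or mutant replicate 3, with an adjusted p of up to 0.15.

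Wnt3, the ridge-forming ligand, rose at E10.5. It measured 17.1, 20.1 and 12.4 CPM in controls and 25.6, 29.1 and 37.1 CPM in mutants, a log2 change of 0.89 ± 0.26 (adjusted p = 0.0309). The groups did not overlap, but the call was lost without control replicate 1, control replicate 3, mutant replicate 2 or mutant replicate 3, where the adjusted p reached 0.148. At E11.5 it measured 13.9, 16.2 and 17.9 CPM in controls and 29.5, 20.6 and 29.4 CPM in mutants. These groups did not overlap either, and the log2 change of 0.73 ± 0.26 had an adjusted p of 0.0636. DESeq2 called Wnt3 at E11.5 (adjusted p = 0.0296), which made 5 ligands against 4 with edgeR, while over all genes it called 4375 against 3529. Wnt3 passed in 4 of 8 other settings, DESeq2 included. It also passed in 1 of 6 fits with 1 library left out, that without mutant replicate 2 (adjusted p = 0.0492).

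The other ligands of the ectoderm did not pass in mutants. Wnt7b, a close relative of the dorsal ectoderm signal Wnt7a, lay between 26.1 and 40.4 CPM in E10.5 controls and between 41.0 and 53.2 CPM in mutants, without overlap, and its log2 change was 0.58 ± 0.26 (adjusted p = 0.155). At E11.5 its groups overlapped, at 38.2 to 66.9 CPM in controls and 49.9 to 65.1 CPM in mutants, with a log2 change of 0.18 (adjusted p = 0.675). Wnt10a, a ligand of hair and tooth development, is the neighbour of Wnt6 on chromosome 1: it spans chr1:74791516-74804179 on mm10, on the same strand, with 6193 bases between the genes. At E10.5 Wnt10a lay between 2.07 and 3.75 CPM in controls and between 3.87 and 4.45 CPM in mutants, a log2 change of 0.56 ± 0.28 (adjusted p = 0.2). At E11.5 the Wnt10a groups overlapped, and the log2 change was 0.12 (adjusted p = 0.806).

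**Figure D2:**
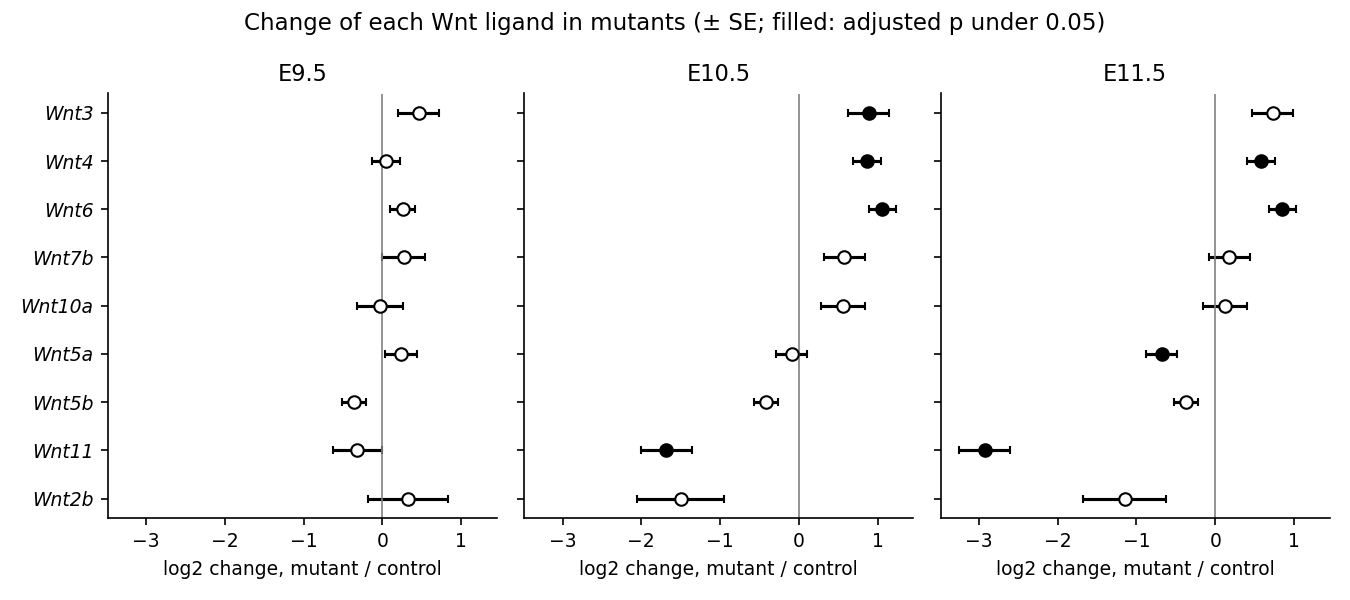
Log2 change of each ligand, mutant over control (horizontal axis), with its standard error as a bar, in 1 panel per stage; filled points have an adjusted p under 0.05 and open points do not. At E10.5 the filled points are Wnt3, Wnt4 and Wnt6 to the right and Wnt11 to the left, and at E11.5 they are Wnt4 and Wnt6 to the right and Wnt5a and Wnt11 to the left.

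Among the ligands of the mesenchyme, Wnt11 had the lowest mutant levels relative to control. At E10.5 it measured 15.1, 21.5 and 19.1 CPM in controls and 4.24, 8.25 and 4.84 CPM in mutants. Every mutant library lay below every control library, and the log2 change was -1.68 ± 0.32 (adjusted p = 0.00206). At E11.5 it measured 38.3, 66.7 and 81.4 CPM in controls and 11.9, 7.76 and 4.72 CPM in mutants, a log2 change of -2.93 ± 0.33 (adjusted p = 1.92e-05) that corresponds to 0.131 times the control level. Both calls were kept in all 6 fits with 1 library left out. At E9.5 the groups were close, at 14.6 to 20.5 CPM in controls and 11.6 to 15.1 CPM in mutants, with a log2 change of -0.32 that did not pass.

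Wnt5a, the ligand of distal outgrowth, had a different course. At E10.5 it measured 187, 207 and 183 CPM in controls and 188, 178 and 177 CPM in mutants. It was the single ligand whose groups overlapped at that stage, with a log2 change of -0.09 ± 0.20 (adjusted p = 0.815). At E11.5 it measured 292, 319 and 355 CPM in controls and 162, 272 and 169 CPM in mutants, so that the groups did not overlap and mutant replicate 2 was nearest to control. Wnt5a fell at E11.5, with a log2 change of -0.68 ± 0.20 (adjusted p = 0.0246). The call was lost without control replicate 2, control replicate 3, mutant replicate 1 or mutant replicate 3, with an adjusted p of up to 0.124.

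Wnt5b, the paralogue of Wnt5a, and Wnt2b, a ligand of the early limb field, did not pass at any stage. Wnt5b lay between 31.4 and 35.4 CPM in E10.5 controls and between 21.4 and 27.9 CPM in mutants, without overlap, and its log2 change was -0.42 ± 0.15 (adjusted p = 0.0656). At E11.5 its log2 change was -0.37 (adjusted p = 0.0947), also without overlap. Wnt2b was measured at low levels, with 25 to 39 counts per library in E10.5 mutants, so that counting error adds to its spread. It lay at 1.51 to 2.15 CPM in E10.5 controls and 0.542 to 0.857 CPM in mutants, with a log2 change of -1.50 ± 0.55 (adjusted p = 0.08). At E11.5 its groups overlapped, with a log2 change of -1.15 (adjusted p = 0.153). DESeq2 called Wnt2b and Wnt5b lower at E10.5, where it called 3652 of all genes against 2802 with edgeR. The span of Wnt2b also overlaps that of the sense intronic transcript Gm43846 on the same strand. Whether the genes share exon sequence, from which read pairs would be left out of the Wnt2b count, was not checked.

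Direct tests of whether the mutant effect differed between stages called 0 of 9 ligands from E9.5 to E10.5, where 2.22% of all genes passed, and 0 of 9 from E10.5 to E11.5, where 0.0746% passed. With an unadjusted p under 0.05 there were 4 and 2 ligands, a level at which all genes were not counted. DESeq2 called 3 and 0 ligands, and over all genes it called 1423 and 191, against 446 and 15 with edgeR. From E9.5 to E10.5 the Wnt6 effect differed by 0.80 ± 0.23 on the log2 scale (adjusted p = 0.079) and the Wnt11 effect by -1.36 (adjusted p = 0.109). From E10.5 to E11.5 the Wnt11 effect differed by -1.25 ± 0.44 (adjusted p = 0.393) and the Wnt5a effect by -0.59 ± 0.28 (adjusted p = 0.588).

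The summed level of the 9 ligands, in CPM per kilobase, was 81.8 ± 2.18 in controls and 91.2 ± 9.27 in mutants at E9.5 (SD, n = 3). At E10.5 it ran from 78.8 to 98.7 in controls and from 108 to 130 in mutants, and at E11.5 from 98.0 to 137 in controls and from 109 to 117 in mutants, which overlapped. The makeup of the sum differed more than its size at E11.5. Wnt6 made up 38.7% ± 6.36 of the sum in E11.5 mutants and 21.0% ± 0.466 in controls, Wnt5a 22.7% ± 7.89 and 35.4% ± 2.55, and Wnt11 1.72% ± 0.743 and 12.5% ± 2.69. In mutants Wnt6 held the first place in the order at all 3 stages, at 52.8 ± 7.84, 55.3 ± 7.31 and 44.3 ± 8.63 CPM per kilobase, and at E11.5 its range overlapped that of Wnt5a, at 25.7 ± 7.87.

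**Figure D3:**
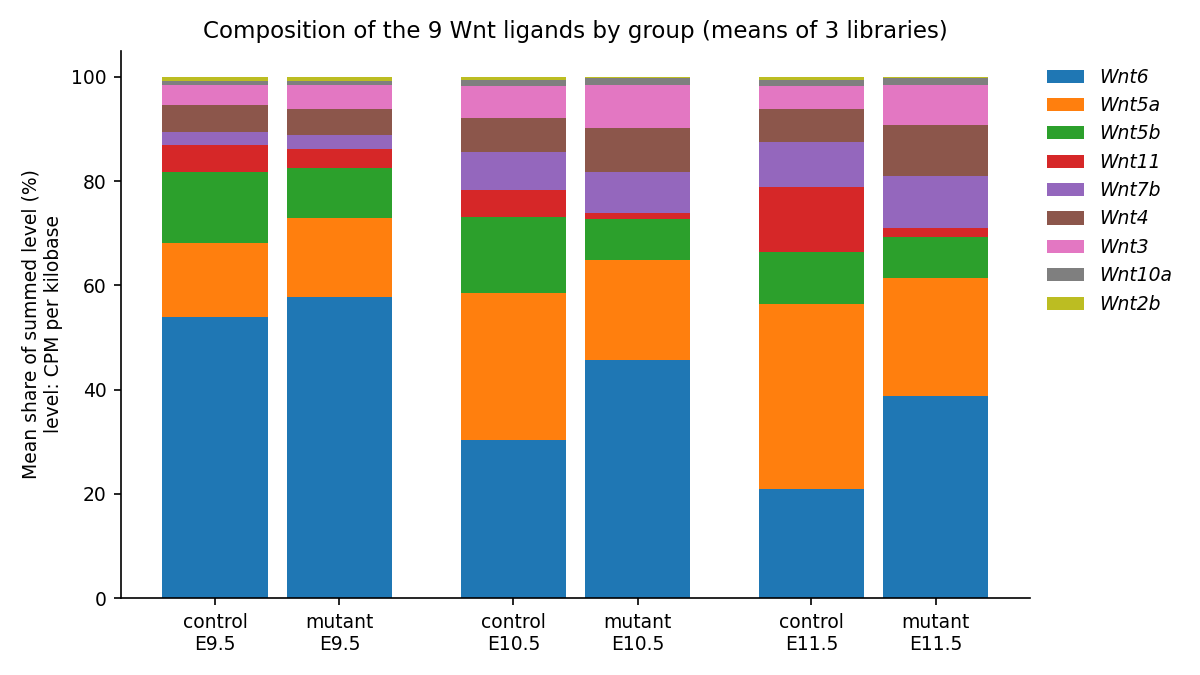
Mean share of each ligand in the summed level of the 9 ligands, in percent of CPM per kilobase (vertical axis), for the 6 groups of 3 libraries. In controls the Wnt6 share is 54.0% at E9.5 and 21.0% at E11.5 and the Wnt11 share at E11.5 is 12.5%, whereas in E11.5 mutants these shares are 38.7% and 1.72%.

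Markers of the cell layers also changed in mutants at E10.5 and E11.5. In bulk samples, fewer cells of a type and less RNA per cell cannot be told apart. Of 18 surface ectoderm markers (genes such as Epcam, Cdh1, Krt8 and Trp63), 15 rose at E10.5 and, a day later, 13 did, with median log2 changes of 1.10 and 0.90. The log2 change was positive for 17 of the 18 at E10.5 and for 15 at E11.5. At E11.5 Krt14 (-0.88), Cdh3 (-0.32) and Krt15 (-0.01) were negative without passing, and Trp63 did not pass either (adjusted p = 0.134). At E9.5, 0 passed and all 18 had a positive log2 change, with a median of 0.35. Their summed level ran from 544 to 764 CPM in E10.5 controls and from 1030 to 1450 CPM in mutants, and from 583 to 936 and from 1030 to 1260 CPM at E11.5. Of 10 ridge markers, among them Fgf8, Sp8 and Dlx2, 7 rose at E10.5 and 4 did at E11.5. All 10 had a positive log2 change at E10.5 and 8 did at E11.5, where Dlx5 (-0.44) and Dlx6 (-0.36) were negative. Of 10 limb mesenchyme markers, 4 fell at E10.5 (Tbx5, Prrx1, Pdgfra and Lhx9) and 5 at E11.5 (the same 4 and Prrx2), and their summed level ran from 1890 to 1980 CPM in E10.5 controls and from 1030 to 1290 CPM in mutants. At E11.5 that sum ran from 2120 to 2190 CPM in controls and from 918 to 1240 CPM in mutants. The log2 change was positive for 2 of the 10 mesenchyme markers at E10.5 and for 1, Msx1 (0.11), at E11.5. None of these markers was at 0 in all libraries of a group.

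Set against the ectoderm markers, the ligands that rose no longer separated the groups. The measure was log2(CPM + 0.5) of the ligand minus the mean of the same value over the 18 markers, library by library. The mean over the markers was itself higher in mutants, by 0.36 at E9.5, 0.91 at E10.5 and 0.73 at E11.5. A gene of unchanged level therefore falls by about that much on this measure, on which all genes were not counted. For Wnt6 it lay between 1.05 and 1.16 in E10.5 controls and between 1.11 and 1.36 in mutants, and at E11.5 between 1.02 and 1.17 and between 1.05 and 1.35. The mutant mean minus the control mean was 0.15 and 0.10 for Wnt6 at the 2 stages, -0.08 and -0.15 for Wnt4, and -0.03 and -0.03 for Wnt3, and the groups overlapped each time. For Wnt7b it was -0.31 and -0.52 and for Wnt10a -0.39 and -0.61, with every mutant library below every control library. The same difference was -0.99 and -1.45 for Wnt5a, -2.55 and -3.61 for Wnt11, -1.33 and -1.10 for Wnt5b and -1.94 and -1.66 for Wnt2b. At E9.5 it was -0.35 for Wnt10a, -0.70 for Wnt5b and -0.67 for Wnt11, without overlap, and the groups of the other ligands overlapped. In these controls the highest values of Wnt5b (1.3) and Wnt11 (0.46) were those of replicate 1, a library that stood apart. The other controls were at 0.24 and 0.05 for Wnt5b and at -0.47 and -0.67 for Wnt11. The highest mutant values were -0.1 for Wnt5b and -0.69 for Wnt11.

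Set in the same way against the 10 mesenchyme markers, Wnt11 stayed below control and Wnt5a did not. The mean over these markers was itself lower in mutants, with a difference of -0.63 at E10.5 and -0.84 at E11.5. A gene of unchanged level therefore rises on this measure, on which all genes were not counted. The mutant mean minus the control mean was -1.01 for Wnt11 at E10.5 and -2.04 at E11.5, and the groups did not overlap at either stage. For Wnt5a it was 0.54 at E10.5, without overlap, and 0.12 at E11.5, with overlap. For Wnt5b it was 0.20, with overlap, and 0.47, without overlap. Wnt2b also stood below control at E10.5, at -0.40 without overlap, and at E11.5 it was at -0.09, with overlap. The other ligands stood above control at both stages without overlap. Their differences at E10.5 were 1.69 for Wnt6, 1.5 for Wnt3, 1.46 for Wnt4, 1.22 for Wnt7b and 1.14 for Wnt10a. The part of the cell layers' shares in the ligand changes was not tested beyond these values. Erythroid markers also rose at E10.5 (6 of 8, summed level 2140 to 4340 CPM in controls and 4550 to 14400 CPM in mutants), as did 5 of 10 endothelial and 4 of 8 macrophage markers. At E11.5, 6 of 8 macrophage markers rose (39.5 to 51.4 CPM in controls and 88.8 to 196 CPM in mutants). Of 8 muscle precursor markers 3 rose at that stage, namely Pax3, Lbx1 and Met, and all 8 had a positive log2 change, with a summed level of 188 to 254 CPM in controls and 331 to 471 CPM in mutants. Erythroid markers had 0 calls at E11.5, with 8 of 8 positive, and 2 of 10 endothelial markers rose. Of 7 trunk markers Pax2 rose and Pax1 and Pax9 fell at E11.5, at a summed level of 42.1 to 97.0 CPM in controls and 14.2 to 37.1 CPM in mutants. At E10.5, 1 trunk marker rose and 2 fell (65.3 to 78.3 CPM in controls and 30.4 to 48.7 CPM in mutants). At that stage 2 of 8 muscle precursor markers rose (121 to 143 and 175 to 274 CPM). Of 8 Schwann and neuron markers 2 rose at E10.5 (61 to 67.9 and 96.8 to 108 CPM) and 1 fell at E11.5. The part of these cell types in the ligand changes was not tested.

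**Figure D4:**
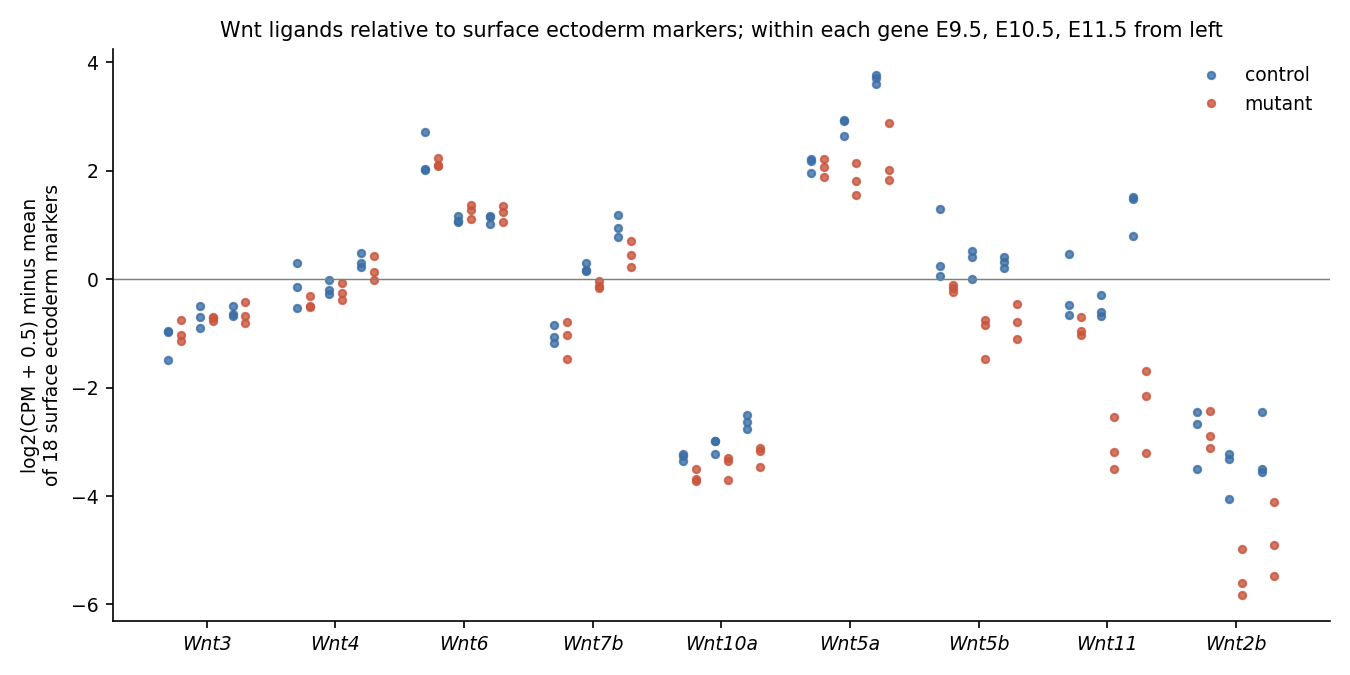
Each ligand relative to the surface ectoderm, as log2(CPM + 0.5) minus the mean over 18 ectoderm markers (vertical axis); points are libraries, blue control and red mutant, with E9.5, E10.5 and E11.5 from left to right for each gene. At E11.5 the Wnt6 points of both groups lie between 1.02 and 1.35, whereas the Wnt11 points lie between 0.79 and 1.51 in controls and between -3.20 and -1.70 in mutants.

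The rest of the pathway was followed in 9 lists with 91 genes, of which 89 passed the filter. At E9.5, 0 of these passed the test with edgeR, 6 had an unadjusted p under 0.05 and DESeq2 called 0. All genes were not counted at that unadjusted level, so the 6 cannot be set against a share. At E10.5, 14 rose and 16 fell, where 7.3% of all genes rose and 6.63% fell, and at E11.5, 11 rose and 20 fell, where 8.02% and 9.52% of all genes did. Of 8 other Wnt ligands kept, Wnt7a, the dorsal ectoderm signal, and Wnt9a rose at E10.5 by 0.86 and 1.15 on the log2 scale, and Wnt16 fell by 3.07 (2.17 to 3.08 CPM in controls and 0.082 to 0.55 CPM in mutants). At E11.5 Wnt9b rose by 1.32 and Wnt8a by 2.64, and Wnt16 fell by 3.14. Of the 4 secretion genes, Tmed5, a cargo receptor, rose at both stages, by 0.56 and 0.40. Porcn, the acyltransferase of Wnt proteins, fell by 0.69 at E11.5.

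Receptors gave more falls than rises at E11.5. Of 10 Frizzled genes, Fzd5 and Fzd6 rose at E10.5 by 1.2 and 0.65, and Fzd2 fell by 0.66. At E11.5, 0 rose and 4 fell, namely Fzd2 by 0.74, Fzd8 by 1.00, Fzd9 by 2.07 and Fzd1 by 0.45. Of 6 coreceptors, Ror2, the Wnt5a receptor, fell at both stages, by 0.61 and 0.62. It lay between 122 and 128 CPM in E10.5 controls and between 77.0 and 90.2 CPM in mutants. Of 13 planar cell polarity genes, Dact1, Prickle2 and Vangl2 fell at E10.5, by 1.51, 1.08 and 0.37, and Celsr2 rose by 0.95. At E11.5 Prickle2, Prickle1 and Dact1 fell, by 0.80, 0.58 and 0.74.

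Secreted modulators held the lowest adjusted p-values. Of 15 antagonists, 3 rose and 2 fell at E10.5, and 2 rose and 4 fell at E11.5. Wif1, which binds Wnt proteins directly, measured 15.3 to 26.2 CPM in E10.5 controls and 2.86 to 4.64 CPM in mutants, a log2 change of -2.45 (adjusted p = 3.92e-06). At E11.5 its change was -2.40. Sfrp2, a decoy for Wnt ligands, fell by 0.97 and 1.90 at the 2 stages, and Dkk2, a ligand of Lrp6, fell by 1.55 at E11.5, while Dkk1, an inhibitor of Lrp6, rose by 1.15. Kremen1 and Kremen2, receptors for the Dkk proteins, rose at E10.5 by 0.74 and 0.79. Notum, an enzyme that removes the lipid of Wnt proteins, rose by 0.54 and 0.57 at the 2 stages, and Dkk3 fell by 0.97 at E11.5. Of 9 R-spondin and Lgr genes, which set receptor turnover, 2 rose and 2 fell at E10.5: Lgr6 rose by 1.66 and Rnf43 by 1.19, Rspo3 fell by 1.91 and Rspo1 by 2.24. At E11.5, Lgr6 rose by 1.38, Rspo2 by 0.94 and Rnf43 by 0.87, and Rspo3 fell by 2.27 (23.2 to 28.5 CPM in controls and 3.94 to 8.07 CPM in mutants).

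Among the transducers of beta-catenin signalling the calls were all falls, and among its targets they went both ways. Of 14 transducers, 0 rose and 4 fell at E10.5 and 0 rose and 3 fell at E11.5, namely Dvl2, Tcf7l1 and Tcf7l2 at both and Bcl9 at E10.5. The log2 change was positive for 2 of the 14 at E10.5 and for 1 at E11.5, with medians of -0.28 and -0.21, against 0.02 and 0.01 over all genes. Dvl2, a dishevelled protein, and Tcf7l2 had log2 changes of -0.37 and -0.74 at E10.5. Of 10 target genes, 3 rose and 2 fell at each stage, in both cases Tcf7, Bambi and Sp5 against Nkd1 and Nkd2. Tcf7 rose by 0.83 at E10.5 and 1.00 at E11.5, Bambi by 0.94 and 0.52, and Sp5 by 0.97 and 3.10 (at E11.5, 1.02 to 2.67 CPM in controls and 9.90 to 16.9 CPM in mutants). Nkd2, an inhibitor of dishevelled, fell by 1.01 and 0.61, and Nkd1 by 0.35 and 0.32. Axin2, the common readout of the beta-catenin branch, is named after its values were seen: its log2 changes of -0.26 and -0.34 had adjusted p-values of 0.185 and 0.0667.

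With 1 library left out at a time, 19 of the 30 pathway calls at E10.5 and 17 of the 31 at E11.5 were kept in all 6 fits. The 11 lost in 1 or more fits at E10.5 were Wnt7a, Wnt9a, Fzd5, Fzd6, Notum, Tcf7l1, Bcl9, Nkd1, Sp5, Celsr2 and Vangl2, with a largest adjusted p between 0.0559 (Celsr2) and 0.189 (Vangl2). The 14 lost in 1 or more fits at E11.5 were Porcn, Tmed5, Fzd1, Notum, Dkk3, Rspo2, Rnf43, Tcf7l1, Tcf7l2, Nkd1, Bambi, Prickle1, Prickle2 and Dact1, with a largest adjusted p between 0.0507 (Tmed5) and 0.221 (Notum). At both stages, leaving out any of the 6 libraries ended at least 1 of these calls.

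**Figure D5:**
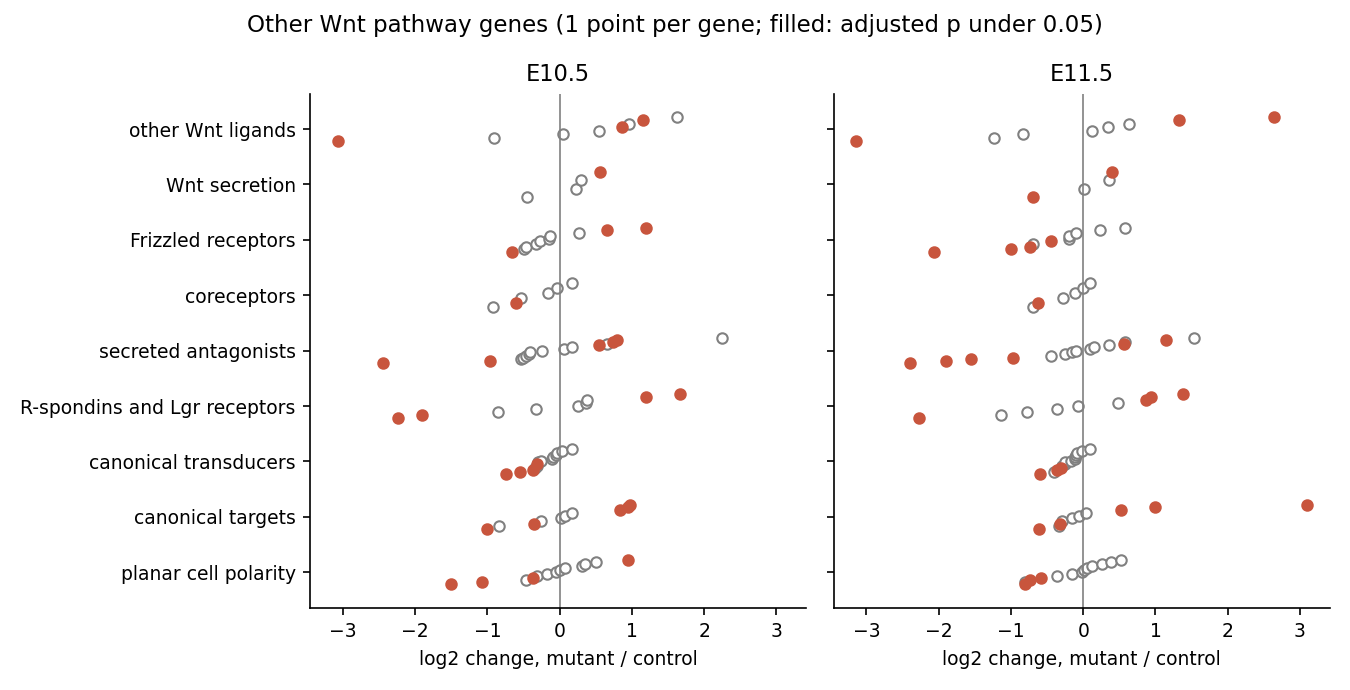
Log2 change, mutant over control (horizontal axis), of the other Wnt pathway genes in 9 lists, at E10.5 and E11.5; each point is 1 gene, and filled points have an adjusted p under 0.05. Secreted antagonists reach -2.45 (Wif1) at E10.5, and among canonical targets Sp5 stands at 3.10 at E11.5.

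Genes with the pattern most like each ligand were sought over the 18 libraries, by the root mean square difference between centred log2 CPM profiles among 11773 protein-coding genes. Wnt2b, for its low level, and Wnt5b, for its small span between groups, were left out. Nearest to Wnt6 were Pdgfa and Bcam, both at 0.14 log2 units, and F11r at 0.18. Nearest to Wnt3 were Celsr2 and Ikzf2, both at 0.20, and Eps8l2 at 0.22. Tpd52 at 0.18, Sdc4 and Rab15 at 0.19 were nearest to Wnt4. Nearest to Wnt5a were Cdh3 and Mdga1 at 0.20 and Slc36a4 at 0.21. Wnt10a had Rapgefl1 at 0.21, Arhgap4 at 0.24 and Rnd3 at 0.25, and Wnt7b had Chst5 at 0.31 and Map2 and Eya2 at 0.33. Wnt11 had no neighbour as near: Wif1 came first at 0.45, then Sfrp2 at 0.51 and Ntrk2 at 0.54. The measure is not scaled to a gene's own range, and Wnt11 had the largest span of group means, 3.41 log2 units. Its larger distances therefore do not show a less common pattern. Celsr2, Wif1 and Sfrp2 are also on the pathway lists, and Cdh3, the first neighbour of Wnt5a, is 1 of the 18 surface ectoderm markers. These likenesses are descriptions over libraries that share stage, genotype and cell makeup.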

How the data were processed

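RNA of 18 forelimb bud libraries was analysed. Counts were made by the authors, per the file headers, with featureCounts 1.6.4, reverse-stranded, over exons of the GENCODE M22 annotation on mm10, which leaves out read pairs shared by genes of 1 strand. The submitters' processing notes also name cutadapt, STAR and limma, without settings. A deposited table of log2 FPKM values computed by the authors for 14692 genes served as an alternative only, and how it was scaled is not stated in the labels or its header. Symbols from the reference annotation matched 99.8% of 55487 identifiers.

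Counts were used as deposited in R 4.3.3 with edgeR 4.0.16. filterByExpr kept 20118 genes, TMM (trimmed mean of M values) scaled the libraries, and the 6 groups were coefficients of 1 robust quasi-likelihood fit, with contrasts for mutants against controls, stages and interactions. Benjamini-Hochberg adjustment ran over all genes kept, with a threshold of 0.05, and rose or fell means past it. The common biological coefficient of variation was 0.231, so for well-counted genes the spread between libraries limits precision more than depth; for genes of few counts, such as Wnt2b and Wnt16, counting error limits it too. CPM uses TMM-scaled library sizes. Alternatives used DESeq2 1.42.0 and limma 3.58.1. The code was tested on simulated data. Counts of replicate pairs differed by a chi-square per degree of freedom of 15.7 to 277, so none was a copy of another.

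The ligands, the 9 pathway and 10 marker lists, the comparisons with marker means and the tests were chosen with earlier results of these data known. Named genes are the 9 ligands, Esco2, up to 4 called genes per list and comparison with the smallest adjusted p, and the 3 protein-coding genes nearest to each ligand in pattern, where mean log2 CPM and span of group means were at least 1. Axin2, further called list members (among them Notum, Sp5 and Nkd1) and markers named as examples stand outside this rule and were named after their values were seen.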

Additional observations from a re-analysis of the deposited data

Results flagged for a closer look

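For 9 of the 89 pathway genes tested, and for none of the 9 ligands, the mutant effect differed between E9.5 and E10.5. This was the interaction test (edgeR's quasi-likelihood test, Benjamini-Hochberg adjusted p under 0.05), in which 2.22% of all genes passed. The difference in log2 change was -2.36 ± 0.32 (SE, adjusted p = 0.00107) for Wif1, -1.88 ± 0.33 (0.00757) for Rspo3, -0.95 ± 0.19 (0.0146) for Nkd2, -1.46 ± 0.32 (0.0273) for Dact1, -1.15 ± 0.28 (0.042) for Prickle2 and -0.66 ± 0.14 (0.0242) for Ror2. It was positive, at 1.62 ± 0.34 (0.0237) for Lgr6, 0.99 ± 0.20 (0.0165) for Bambi and 0.62 ± 0.14 (0.0272) for Tmed5. Wif1 and Rspo3 passed in all 12 fits with 1 library left out. Nkd2 was lost without mutant E10.5 replicate 3 (adjusted p = 0.0535), Bambi in 3 fits (up to 0.0572), and the other 5 genes passed in 4 to 6 of 12 fits (up to 0.123 for Prickle2). In the same comparison DESeq2 called 12 pathway genes, where it called 1423 of all genes.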

How the results depend on the processing

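The counts of ligands called were recomputed under 8 other settings and with each library left out. From E9.5 to E10.5 the interaction called 0 ligands and DESeq2 called 3 (Wnt4, Wnt6 and Wnt11), where edgeR called 446 and DESeq2 1423 of all genes. Without a filter on low counts, 1 ligand (Wnt11) in place of 2 passed between control E10.5 and E11.5, and Wnt3 at E10.5 and Wnt5a at E11.5 were lost in mutants. Leaving out 1 library at a time gave 3 to 4 ligands at E10.5, 2 to 5 at E11.5, 0 to 2 for the change from E9.5 to E10.5 (2 without control E9.5 replicate 2 and 1 without mutant E10.5 replicate 1), 3 to 5 between control E9.5 and E10.5 and 1 to 2 between control E10.5 and E11.5. Without both libraries that stood apart, 5 ligands passed at E10.5 and 6 at E11.5, Wnt5b at both and Wnt3 at E11.5 being added.

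The replicate numbers did not pair the libraries. Same-numbered mutant and control libraries correlated in their deviations at -0.29 to 0.33. Over 0.1 were 5 of 9 pairs, and 3 of 9 were best with their own number. The first number of the sample description was shared by some control and mutant libraries at each stage. Some replicates of a group also shared it at E10.5 and E11.5. As a random block, this number gave a within-block correlation of 0.299. The main fits left it out and treated the libraries as independent. Whether it marks a litter is not stated. In the fit with a replicate block, the same 4 ligands passed at E10.5 and the same 4 at E11.5, 0 at E9.5 and in both interactions, and 4 and 2 between control stages. With the block Wnt10a at E9.5 stood at 0.00, as it did on the deposited log2 FPKM and with the first number of the sample description as a block. Other log2 changes near 0 turned sign. Without both libraries that stood apart, Wnt2b at E9.5 was -0.08, and the changes from E10.5 to E11.5 of Wnt3 and Wnt5b were 0.01 and -0.04. With the description block, that of Wnt2b was -0.09.

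With 1 library left out, sign changes came at E9.5 for Wnt2b (-0.08 to 0.67), Wnt4 (-0.06 to 0.16) and Wnt10a (-0.28 to 0.16), at E11.5 for Wnt10a (-0.03 to 0.26), from E9.5 to E10.5 for Wnt5b (-0.28 to 0.05), and from E10.5 to E11.5 for Wnt2b (-0.27 to 0.79), Wnt3 (-0.32 to 0.01) and Wnt5b (-0.04 to 0.15). Between control stages they came for Wnt11 (0.00 to 0.26), Wnt2b (-0.05 to 0.59), Wnt3 (-0.22 to 0.12) and Wnt6 (-0.25 to 0.04). The cause was not tested. Of 990 recomputed ligand values, 908 kept direction and side of the threshold, 26 were lost as calls, 26 were gained and 30 turned sign.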
